A study of Arabidopsis thaliana with 16 samples.

Results

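Ovules were set against the whole organ that carries them. The comparison used 4 of the 16 ATH1 arrays of the series, chosen by their sample labels alone: 2 biological replicates of ovules that had been dissected out of unpollinated pistils, and 2 biological replicates of intact unpollinated pistils, all from Arabidopsis thaliana plants of the Columbia ecotype without any labelled treatment. Both sample types came from the same earlier study, and the labels give neither the plants behind a replicate nor the developmental stage, so the p-values measure the spread between these arrays. The ATH1 array reads transcripts through probe sets, groups of short probes that usually match 1 gene, and 22746 probe sets remained after 64 control probe sets had been left out of 22810. The remaining 12 arrays, 2 each of siliques, flowers, leaves, seedlings, pollen and root hairs, entered the estimate of the spread and served to show where else a transcript was present.

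The pistil is the female organ of the flower. Its stigma receives pollen, its style and transmitting tract guide the pollen tube, and its green ovary wall encloses the ovules, which become the seeds. An ovule carries the female gametophyte with the egg cell, wrapped in integuments that later form the seed coat, and the innermost integument layer turns into the endothelium, in which proanthocyanidins accumulate. Since whole pistils contain their ovules, a transcript of the ovule was part of both samples, whereas a transcript restricted to stigma, style or ovary wall was part of the pistil samples only. In such mixtures of cells, a smaller share of cells of a type and less RNA per cell cannot be told apart.

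The replicates lay close together. Pearson's r of the log2 values was 0.993 between the 2 ovule arrays and 0.990 between the 2 pistil arrays, and 0.901 to 0.908 between an ovule and a pistil array. The intensity is a fluorescence value on a linear scale, and its median was 232 and 230.2 on the ovule arrays and 216 and 222 on the pistil arrays. An intensity of 216 was taken as the detection level, and 51.6% and 51.4% of the probe sets lay above it in ovules and 50.1% and 50.8% in pistils. Differences are given as log2(intensity + 71.9) in ovules minus that in pistils, so that a difference of 1 is 2-fold, and they understate the change of dim probe sets.

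More probe sets were called higher in ovules than in pistils, but the large differences were on the side of the pistil. At an adjusted p under 0.05 from limma, 8038 probe sets (35.3% of 22746) were higher in ovules and 3653 (16.1%) higher in pistils. At least 2-fold differences were fewer, with 751 probe sets (3.3%) higher in ovules and 1089 (4.79%) higher in pistils. At least 4-fold, 66 probe sets (0.29%) were higher in ovules and 285 (1.25%) in pistils, and at least 8-fold, 0 in ovules and 64 (0.281%) in pistils. The differences reached from 2.93 on the ovule side to -4.94 on the pistil side. Likewise 108 probe sets lay above the detection level on both pistil arrays and below 71.9 on both ovule arrays, against 10 with the opposite pattern. Pistils contain ovules, so an ovule transcript was also part of the pistil samples, which limits differences on the ovule side by design. How much of the asymmetry follows from that was not tested.

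The number of small differences depended on how the arrays were scaled. The median difference over all probe sets was 0.08, and it was 0.29 over the 11974 probe sets with a mean above the detection level. When each array was scaled to its 75th percentile, the median moved by -0.12, and 4514 probe sets were higher in ovules and 4928 in pistils, so that the share of calls on the ovule side went from 68.8% to 47.8%. All 4514 were among the 8038. A small difference of 1 gene is therefore read against these medians. After quantile normalization, the other rescaling used below, 5650 probe sets were higher in ovules and 3842 in pistils. The shares of 35.3% and 16.1% belong to the values as deposited. Counts of list members after a rescaling are to be set against the counts of that rescaling out of 22746 instead.

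**Figure D1:**
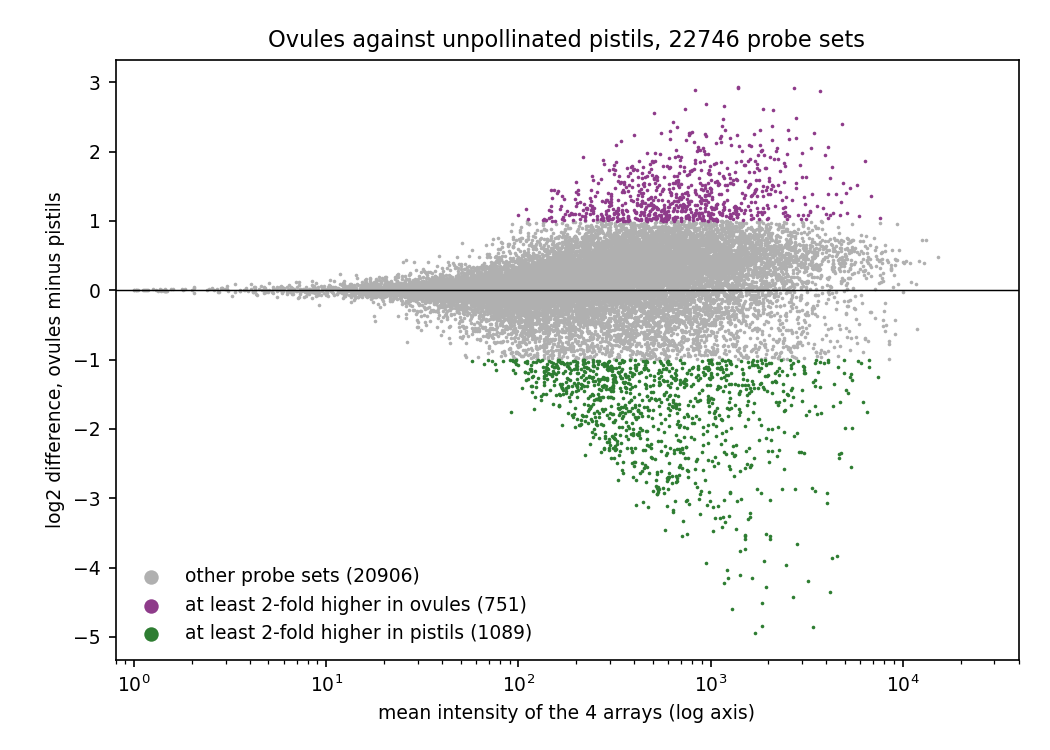
Log2 difference between ovules and unpollinated pistils (vertical axis) against the mean intensity of the 4 arrays (horizontal log axis), 1 point for each of the 22746 probe sets. The 751 probe sets at least 2-fold higher in ovules end at 2.93, whereas the 1089 at least 2-fold higher in pistils reach -4.94.

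The genes with the highest ratio in ovules include genes of the proanthocyanidin pathway and of the seed coat. BAN (AT1G61720), the anthocyanidin reductase that makes the building blocks of proanthocyanidins, had intensities of 2334 and 2660.2 on the ovule arrays and 310.0 and 233 on the pistil arrays (log2 difference 2.91, SE 0.11, adjusted p = 2.9e-11 from limma). DELTA-VPE (AT3G20210), a vacuolar processing enzyme known for the death of inner integument cells, was at 4866 and 4861 in ovules and 566 and 605 in pistils (log2 difference 2.91, SE 0.09, adjusted p = 3.5e-12). The ovule arrays stood 9.20-fold and 8.31-fold above the pistil arrays on the linear scale, with replicates that differed far less than the groups. AHA10 (AT1G17260), a proton pump needed to load proanthocyanidins into the vacuole, was at 529 and 608 in the ovule replicates and 83.4 and 73.2 in the pistil replicates (log2 difference 2.09, SE 0.07, adjusted p = 1.8e-11), so that the pistil arrays were below the detection level. DFR (AT5G42800), the dihydroflavonol reductase upstream of BAN, was at 403 and 476 in ovules against 88.9 and 104 in pistils (log2 difference 1.60, SE 0.10, adjusted p = 6.7e-09).

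Of the 5 measured genes of the flavonoid and proanthocyanidin list, 4 were higher in ovules and 1 in pistils, against 35.3% and 16.1% of all probe sets. Their median difference was 1.60, against 0.08 over all probe sets. UGT78D1 and UGT78D2 glycosylate flavonols and related flavonoids. UGT78D1 was at 1987 and 2644 on the ovule arrays and 1322 and 1155 on the pistil arrays and higher in ovules (log2 difference 0.85, SE 0.12, adjusted p = 2.7e-05). UGT78D2 was at 126 and 139 in ovules and 325 and 280.2 in pistils and higher in pistils (log2 difference -0.87, SE 0.19, adjusted p = 0.0013). The pair therefore pointed in opposite directions, and the arrays of the groups did not overlap for either.

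In siliques, which hold developing seeds, these seed coat genes were mostly brighter still. BAN reached 5436 ± 261 (SD, n = 2), DELTA-VPE 9169 ± 178 and DFR 3035 ± 240.0, all above their ovule levels, whereas AHA10 stood at 392 ± 12.4. In leaves BAN, DELTA-VPE, AHA10 and DFR lay below the detection level, between 42.2 and 83.7. The silique, flower, leaf and seedling arrays came from another study than the ovule and pistil arrays, so a difference between the studies cannot be told apart from one between the tissues.

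Genes of ovule identity and of the integuments checked the label of the ovule samples. STK (AT4G09960), the MADS-box factor that specifies ovule identity and the funiculus, was at 4479.8 and 5062 in the ovule replicates and 1574 and 1404 in the pistil replicates (log2 difference 1.63, SE 0.10, adjusted p = 5.0e-09). INO (AT1G23420), a YABBY factor of the outer integument, was at 1614 and 1855 in ovules against 516 and 459 in pistils (log2 difference 1.69, SE 0.10, adjusted p = 3.7e-09). VDD (AT5G18000), a B3 domain factor that acts downstream of the ovule identity complex, was at 722 and 868 on the ovule arrays and 184 and 245 on the pistil arrays (log2 difference 1.60, SE 0.11, adjusted p = 1.8e-08). STK was 3.20-fold, INO 3.56-fold and VDD 3.71-fold brighter in ovules on the linear scale, with every ovule array above every pistil array.

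Of the 11 measured genes of this list, out of 32 listed, 8 were higher in ovules, against 35.3% of all probe sets, 0 were higher in pistils and 3 did not pass the test (median 0.66). ACR4, a receptor kinase of integument and epidermal cells, differed by 1.08 (SE 0.10, adjusted p = 2.9e-07), and its arrays stood at 862 and 843 in ovules and 327 and 406 in pistils. TSO1, HLL and SEU, which act in flower and ovule growth, differed by 0.73, 0.66 and 0.56. SUB, a receptor-like kinase of ovule shape, lay below the detection level on all 4 arrays with a difference of 0.24 (adjusted p = 0.032), a call that did not hold after either rescaling of the arrays. Its call was also lost without any 1 of the 4 arrays. The 3 without a call were KLU at 0.09 (adjusted p = 0.31), SPL at -0.02 (adjusted p = 0.88) and PHV at -0.09 (adjusted p = 0.58). SPL, which is needed for the start of sporogenesis, and KLU, a cytochrome P450 that promotes organ growth, were below 216 on all 4 arrays. PHV, a homeodomain factor of leaf and integument polarity, was above it in both groups.

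Transcripts of the egg cell were brighter in ovules. EC1.2 and EC1.5 encode small secreted proteins of the egg cell that activate sperm at fertilization. EC1.2 was at 853 and 794 in the ovule replicates and 197 and 232 in the pistil replicates (log2 difference 1.65, SE 0.07, adjusted p = 1.7e-10). EC1.5 was at 954 and 845 in ovules against 226 and 253 in pistils (log2 difference 1.64, SE 0.08, adjusted p = 6.8e-10). In siliques their means were 94.0 ± 0.50 and 36.0 ± 5.91, both below the detection level.

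Of the 10 measured genes of the female gametophyte list, 6 were higher in ovules, against 35.3% of all probe sets, and 0 in pistils (median 0.35). FER, the receptor kinase by which synergids control pollen tube reception and which is used in many other tissues, was at 1953 and 2326 on the ovule arrays and 1494 and 1016 on the pistil arrays (difference 0.76, adjusted p = 1.7e-04). AGL62 and AGL80, MADS-box factors of the central cell and endosperm, differed by 0.37 and 0.36, but all their arrays lay below 216. DME, the DNA glycosylase of the central cell, was at 375 and 353 in ovules and 266 and 279.6 in pistils (difference 0.34, adjusted p = 0.0013), close to the shift of bright probe sets. AGL28 (0.15, adjusted p = 0.072), AGL23 (0.01, adjusted p = 0.92), AGL61 (0.00, adjusted p = 0.99) and the Polycomb gene MEA (-0.01, adjusted p = 0.96) did not pass. The calls of AGL80 and DME were lost after scaling to the 75th percentile, which left 4 calls.

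Several secreted peptides were also brighter in ovules. LCR80 (AT5G38330), a cysteine-rich peptide, was at 1897 and 2327 in the ovule replicates and 389 and 489 in the pistil replicates (log2 difference 2.095, SE 0.12, adjusted p = 2.1e-09). LCR24 (AT4G29285), another member, was at 1174 and 1163 in ovules against 281 and 301 in pistils (log2 difference 1.77, SE 0.11, adjusted p = 3.6e-09). RALFL28 and RALFL18 belong to the rapid alkalinization factor peptides, some of which are ligands of FER and its relatives. RALFL28 (AT4G11510) was at 1492 and 1578 on the ovule arrays and 323 and 359 on the pistil arrays (log2 difference 1.96, SE 0.07, adjusted p = 3.2e-11). RALFL18 (AT2G33130) was at 489 and 460.2 in ovules and at 79.8 and 74.96, under the detection level, in pistils (log2 difference 1.87, SE 0.10, adjusted p = 8.9e-10).

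Within these peptide families the members differed in direction. Of 13 measured cysteine-rich and defensin-like peptides, 6 were higher in ovules and 2 in pistils, against 35.3% and 16.1% of all probe sets, and 4 and 3 after scaling to the 75th percentile. The 2 were LCR68 (-1.27) and PDF1.4 (-1.13). LCR69 was the brightest of those named, at 9109.9 and 8794 in ovules and 5199 and 5375 in pistils (difference 0.75). Of 11 measured RALF-like genes, 4 were higher in ovules and 2 in pistils, shares near those of all probe sets, and 4 and 5 after scaling to the 75th percentile. They had a median of 0.02 that turned to -0.03 after that scaling. RALF1, the founding ligand of FER, was at 40.3 and 41.2 in the ovule replicates and 90.8 and 99.4 in the pistil replicates. LCR80, RALFL28 and RALFL18 stood at 63.8, 84.6 and 73.1 in siliques, below the detection level, whereas LCR24 was at 545 ± 123.

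Genes of cell division were higher in ovules. HTR12 (AT1G01370), the histone of the centromere, was at 534 and 584 in ovules against 128 and 165 in pistils (log2 difference 1.53, SE 0.09, adjusted p = 2.5e-09). PCNA1 (AT1G07370), the clamp that holds DNA polymerase on its template, was at 1639 and 2055 on the ovule arrays and 591 and 599.6 on the pistil arrays (log2 difference 1.52, SE 0.10, adjusted p = 8.7e-09). MCM7 (PRL), a subunit of the replicative helicase, differed by 1.25, the mitotic kinase AUR3 by 1.15 and the cyclin-dependent kinase CDKB2;2 by 1.12. Of 19 measured genes of the cell cycle list, 17 were higher in ovules, against 35.3% of all probe sets, and 2 in pistils (median 0.85), and scaling to the 75th percentile left 14 and 2.

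The 2 on the pistil side were SIM, an inhibitor of cyclin-dependent kinases known for endoreduplication in trichomes (difference -0.51), and CDC25, whose product is an arsenate reductase as well as a phosphatase (difference -0.35). The 8 measured histone genes, a list added after the values had been seen, were all called higher in ovules, also after both rescalings. Of all probe sets 35.3% were called so, and 52.4% of those with a mean from 216 to 1000. The differences of the 8 ran from 0.78 to 1.91. HTB2, a histone H2B, was at 1135 and 871 in ovules and 215 and 209 in pistils, and HTB1, a second H2B, at 2144 and 1724 in the ovule replicates and 560.5 and 602 in the pistil replicates. HIS1-3, a linker histone known from drought stress, was at 498 and 388 in ovules and at 154 and 119, below the detection level, in pistils.

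Genes of chromatin and IQ-domain genes were called in ovules only or not called. The chromatin remodeller gene chr31 (AT1G05490), whose product takes part in RNA-directed DNA methylation, was at 3273 and 2835 in ovules against 714 and 763 in pistils (log2 difference 1.94, SE 0.09, adjusted p = 3.1e-10). NRPE1, the largest subunit of RNA polymerase V of the same pathway, was at 723 and 709.8 on the ovule arrays and 301 and 288 on the pistil arrays (difference 1.105, adjusted p = 8.3e-09). Of 6 measured genes of DNA methylation, Polycomb and small RNA, 4 were higher in ovules and 0 in pistils, against 35.3% and 16.1% of all probe sets, and 3 and 0 after either rescaling. All 6 had a mean above the detection level in ovules or pistils. Among probe sets with a mean from 216 to 1000, 52.4% were called higher in ovules. Of 13 IQ-domain proteins, calmodulin-binding proteins of microtubules and membranes, 11 were higher in ovules and 0 in pistils, against 35.3% and 16.1% of all probe sets. IQD22 was at 1206 and 1037 in ovules and 213 and 265 in pistils. IQD16 was at 817 and 843 in the ovule replicates and 167 and 191 in the pistil replicates. Of these 13, 7 were called after quantile normalization and 6 after scaling to the 75th percentile.

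EMS1 (AT5G07280), the receptor kinase known for tapetum formation in anthers, was bright in ovules. Its arrays stood at 3492 and 3278 in ovules against 769 and 959 in pistils (log2 difference 1.89, SE 0.10, adjusted p = 9.3e-10). ERL1, a receptor kinase of stomatal patterning and organ growth, was at 1198 and 1374 on the ovule arrays and 494 and 501 on the pistil arrays (difference 1.25). LAP6, which makes a sporopollenin precursor in anthers, was above the detection level on all 4 arrays, at 515 and 479.7 in ovules and 314 and 371 in pistils (difference 0.46, adjusted p = 1.8e-04).

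**Figure D2:**
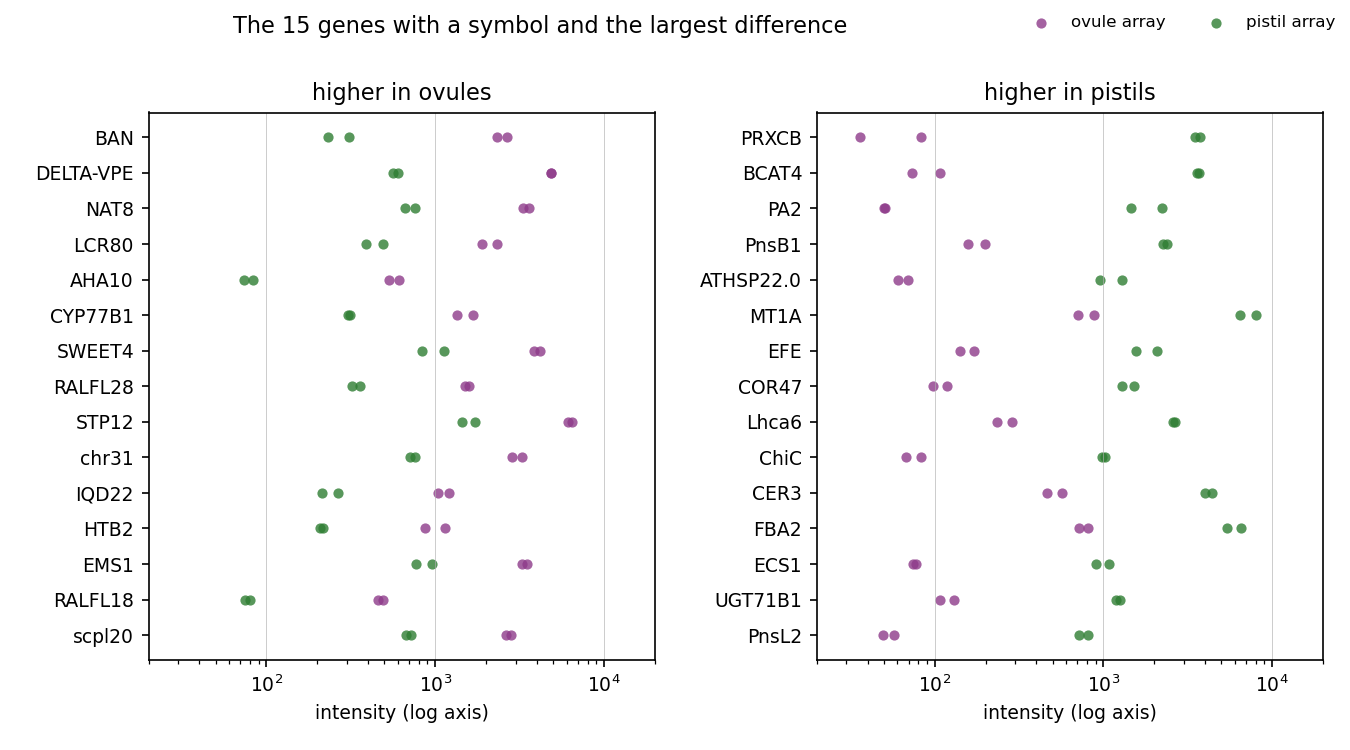
Intensity on each of the 4 arrays (log axis) of the 15 genes with a symbol and the largest log2 difference in each direction. Ovule arrays (purple) and pistil arrays (green) do not overlap for any of these genes, which the choice of the genes required. On the right both ovule arrays of PRXCB, PA2, ATHSP22.0, ChiC, ECS1 and PnsL2 lie below 100.0.

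The same choice of 15 genes without asking for a symbol gave 13 further genes in ovules that are known here by their locus only. AT4G15750 was at 1524 and 1503 in the ovule replicates and 132 and 154 in the pistil replicates (log2 difference 2.88, SE 0.07, adjusted p = 1.4e-12), AT1G56100 at 3743 and 3583 in ovules against 467 and 628 in pistils and AT1G12180 at 4811 and 4676 on the ovule arrays and 774 and 808 on the pistil arrays. The pistil level of the 15 genes was 9.45% to 20.01% of the ovule level. AT4G15750 had the lowest of these ratios, and its intensity in siliques was 8402 ± 474. Of the 15, 4 were brighter in siliques than in ovules and 6 were below the detection level in siliques, so that the ovule-side genes included both kinds. AT5G58400 and AT5G42955 belonged to the latter, with 37.99 and 28.3 in siliques and 994 and 839 as well as 1310.0 and 1357 on the ovule arrays.

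Transporters of sugars and amino acids went both ways. SWEET4 (AT3G28007), a hexose transporter, was at 3872 and 4167 in ovules and 1125 and 836 in pistils (log2 difference 1.97, SE 0.12, adjusted p = 5.0e-09). STP12 (AT4G21480), a sugar-proton symporter of the monosaccharide family, was at 6493 and 6134 in the ovule replicates and 1442 and 1716 in the pistil replicates (log2 difference 1.96, SE 0.12, adjusted p = 4.0e-09). AAP8, an amino acid permease that feeds young seeds, was at 757 and 650.3 in ovules and at 131 and 152, below the detection level, in pistils (log2 difference 1.86, SE 0.09, adjusted p = 3.1e-10). On the pistil side stood SWEET17, a fructose transporter of the vacuole, with 109 and 118 in ovules against 706 and 718 in pistils (difference -2.08), SWEET1, a glucose transporter (difference -1.46), and the vacuolar invertase VI2 (difference -1.08). Of 16 measured members of the list, 6 were higher in ovules and 6 in pistils, against 35.3% and 16.1% of all probe sets (median -0.05). After scaling to the 75th percentile 4 were higher in ovules and 6 in pistils. The nucleobase-ascorbate transporter NAT8 (AT1G10540) was at 3336 and 3586 on the ovule arrays and 761 and 666 on the pistil arrays (log2 difference 2.17, SE 0.09, adjusted p = 1.2e-10).

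Among hormone genes, the auxin response factor ARF5 (MP), which patterns embryo and vasculature, had the highest difference on the ovule side. It was at 2648 and 3194 in ovules and 1081 and 1053 in pistils (log2 difference 1.39, SE 0.12, adjusted p = 1.7e-07). PIN7, an auxin efflux carrier, was at 85.3 and 82.5 in the ovule replicates and 338 and 239.7 in the pistil replicates (log2 difference -1.20, SE 0.12, adjusted p = 9.2e-07). Of 18 measured auxin genes, 4 were higher in ovules and 6 in pistils, against 35.3% and 16.1% of all probe sets, and 8 were not called. After scaling to the 75th percentile 3 were higher in ovules and 8 in pistils. The gibberellin and brassinosteroid list had 6 of 9 higher in ovules and 1 in pistils, against 35.3% and 16.1% of all probe sets. Of these 9, 7 had a mean above the detection level in ovules or pistils. Among probe sets with a mean from 216 to 1000, 52.4% were called higher in ovules. GAI, a DELLA repressor, differed by 0.87 and the gibberellin receptor GID1A by 0.75. After that scaling the gibberellin and brassinosteroid counts were 3 and 2.

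ARR16 and ARR7, response regulators that cytokinin induces, were higher in pistils. ARR16 was at 90.5 and 85.7 in ovules against 335 and 348 in pistils (log2 difference -1.37, SE 0.09, adjusted p = 1.3e-08) and ARR7 at 111 and 107 on the ovule arrays and 242 and 309 on the pistil arrays (log2 difference -0.93, SE 0.12, adjusted p = 9.3e-06). Of 9 measured cytokinin genes, 2 were higher in each sample, against 35.3% and 16.1% of all probe sets, and after either rescaling 0 were higher in ovules and 2 in pistils. ACO4 (EFE, AT1G05010), an ACC oxidase that makes ethylene, was at 171 and 142 in ovules and 2084 and 1562 in pistils (log2 difference -3.04, SE 0.15, adjusted p = 4.7e-10), below the detection level in ovules. CTR1, EIN3 and ERS2, which sense or transmit the ethylene signal, differed by 0.61, 0.49 and 0.44 on the ovule side, and EIN3 was not called without the second pistil array (0.25, adjusted p = 0.072). In all, 3 of 7 genes of ethylene and senescence were higher in ovules and 2 in pistils, against 35.3% and 16.1% of all probe sets, and 2 and 4 after scaling to the 75th percentile.

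Among the genes with the largest differences on the pistil side, several were below the detection level in ovules. PRXCB (AT3G49120), a cell wall peroxidase, was at 82.9 and 36.0 in the ovule replicates and 3754 and 3506 in the pistil replicates (log2 difference -4.84, SE 0.25, adjusted p = 8.8e-10), and its probe set may also pick up transcripts of close relatives. PA2 (AT5G06720), another peroxidase, was at 50.6 and 50.0 in ovules against 2218 and 1454 in pistils (log2 difference -3.93, SE 0.19, adjusted p = 4.2e-10). Both ovule arrays were below the detection level for either gene, and the ovule level was 1.64% and 2.74% of that in pistils. AT2G33850 was at 36.1 and 36.7 on the ovule arrays and 2515 and 2579 on the pistil arrays (log2 difference -4.60, SE 0.09, adjusted p = 1.2e-13), with 1499 ± 209 in flowers and 58.9 in leaves. AT4G19430 was at 69.3 and 118 in ovules and 2671 and 2843 in pistils, with 1508 ± 189 in flowers and 52.7 in leaves. For the 15 genes of this side the ovule level was 1.43% to 8.64% of the pistil level.

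Glucosinolate synthesis stood out by size. BCAT4 (AT3G19710), the aminotransferase that starts the elongation of methionine, was at 72.9 and 107 in the ovule replicates and 3571 and 3673 in the pistil replicates (log2 difference -4.52, SE 0.12, adjusted p = 2.0e-12). CYP79F1 (AT1G16410), which turns elongated methionine into aldoxime, was at 34.2 and 31.5 in ovules against 625 and 622 in pistils (log2 difference -2.73, SE 0.09, adjusted p = 1.1e-11). BAT5, a transporter of the chain elongation intermediates into the plastid, differed by -2.43, the sulfotransferase SOT17 by -1.97, and the glucosinolate transporters GTR1 and GTR2 by -2.04 and -1.89. The glucosyltransferase UGT74B1 was at 596 and 662 on the ovule arrays and 1990.1 and 1757 on the pistil arrays (difference -1.47).

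Of the 9 measured genes of this list, 7 were at least 2-fold higher in pistils, against 4.79% of all probe sets, 0 were higher in ovules, and MYB51 and AOP3 were not called (median -1.97). The counts at an adjusted p under 0.05 were 7 and 0 after both rescalings as well. In flowers BCAT4 and CYP79F1 had means of 104 and 29.5, below the detection level, and in leaves of 4788 ± 628 and 1120.3 ± 136. Flowers contain pistils, but these samples came from the other study.

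Genes of photosynthesis were lower in ovules almost without exception. FBA2 (AT4G38970), an aldolase of the Calvin cycle, was at 809 and 712 in ovules and 6552 and 5364 in pistils (log2 difference -2.85, SE 0.09, adjusted p = 6.1e-12). RCA (AT2G39730), the activase of Rubisco, was at 1486 and 1342 in the ovule replicates and 8162 and 7575 in the pistil replicates (log2 difference -2.42, SE 0.08, adjusted p = 5.1e-12). The subunits PSAN and PSAD-2 of photosystem I differed by -2.06 and -2.004, and the antenna proteins LHCB4.2 and LHCB4.3 by -1.75 and -1.73. Of 20 measured genes, 19 were higher in pistils, against 16.1% of all probe sets, and 17 of them at least 2-fold, against 4.79%. PORB, an enzyme of chlorophyll synthesis, was not called (difference -0.26, adjusted p = 0.21). The median was -1.32.

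None of the 20 was below the detection level on all arrays, and ovules kept a summed intensity of 38958 to 45750.5 against 101590.0 to 108775 in pistils. PnsB1 and PnsL2 are subunits of the plastid NDH complex. PnsB1 was at 199 and 158 in ovules against 2382 and 2260.0 in pistils, and PnsL2 at 57.1 and 49.2 on the ovule arrays and 812 and 717 on the pistil arrays. Lhca6, an antenna protein that links this complex to photosystem I, was at 289 and 235 in ovules and 2589.6 and 2645 in pistils. The differences of PnsB1, PnsL2 and Lhca6 were -3.26, -2.74 and -3.01.

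Transcripts of the plastid genome shared the direction with smaller size. Of 69 probe sets for plastid genes, 50 were higher in pistils, against 16.1% of all probe sets, 4 higher in ovules, against 35.3%, and 15 not called (median -0.61). psbA, which encodes a core protein of photosystem II, was at 428 and 345 in the ovule replicates and 1689 and 2294 in the pistil replicates (log2 difference -2.16, SE 0.14, adjusted p = 7.7e-09). petB, a subunit of the cytochrome b6f complex, was at 2208 and 3244 in ovules against 8119.8 and 6729.9 in pistils (log2 difference -1.44, SE 0.14, adjusted p = 5.5e-07).

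Most of the 16 mitochondrial genes listed by symbol were also higher in pistils. Mitochondrial probe sets without such a symbol, such as that of ATMG01000 (difference 0.04, not called), were left out of the list. cox2, a subunit of cytochrome oxidase, was at 208 and 188 on the ovule arrays and 838 and 1754 on the pistil arrays (log2 difference -2.26, SE 0.22, adjusted p = 6.2e-07). The 2 pistil arrays differed from each other more than for most genes named here, and nad9 was at 755 and 558 in ovules and 1281 and 2120.5 in pistils (log2 difference -1.25, SE 0.18, adjusted p = 3.7e-05), with the same pistil array on top. Of 16 measured genes, 11 were higher in pistils, against 16.1% of all probe sets, and 1 in ovules, against 35.3% (median -0.52). Their summed intensity was 9230 and 10487 on the ovule arrays and 11213 and 17244 on the pistil arrays, so the pistil arrays differed widely. The 1 in ovules was orfX, with a difference of 0.69 (adjusted p = 0.019), a call that was lost after either rescaling. cox2 was at 89.4 to 114 in siliques, flowers, leaves and seedlings, all below the detection level, and at 714 ± 147 in root hairs.

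Of 10 measured genes of the cuticle, the wax and cutin layer of outer surfaces, 5 were higher in pistils and 2 in ovules, against 16.1% and 35.3% of all probe sets, and after scaling to the 75th percentile 7 and 0. CER3 and CER1 act together in the synthesis of wax alkanes. CER3 (AT5G57800) was at 566 and 459.9 in the ovule replicates and 4398 and 3972 in the pistil replicates (log2 difference -2.87, SE 0.11, adjusted p = 2.6e-11). CER1 (AT1G02205) was at 607 and 671 in ovules against 4129 and 4178 in pistils (log2 difference -2.57, SE 0.09, adjusted p = 9.0e-12). SHN3, a transcription factor that promotes cutin and wax formation, differed by -1.81, the wax ester synthase WSD1 by -1.30 and the cutin hydroxylase CYP86A4 by -1.098. WBC11, an ABC transporter that exports cutin and wax, was one of the 2 on the ovule side, at 2681 and 2961 on the ovule arrays and 2444 and 1681 on the pistil arrays (difference 0.46), and it was not called without the second ovule array (0.39, adjusted p = 0.071) or the second pistil array (0.20, adjusted p = 0.16). CYP77B1 (AT1G11600), a cytochrome P450, was also higher in ovules, with 1338 and 1679 in ovules and 304 and 312 in pistils (log2 difference 2.05, SE 0.10, adjusted p = 4.9e-10).

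Of 7 measured vascular genes, 4 were higher in pistils, against 16.1% of all probe sets, 1 was higher in ovules and 2 were not called (median -0.85). XCP2, a cysteine protease of xylem vessels, was at 282 and 229 in the ovule replicates and 1811 and 1831 in the pistil replicates (log2 difference -2.54, SE 0.15, adjusted p = 4.4e-09). SUC2, the sucrose loader of phloem companion cells, was at 825 and 578 in ovules against 1996 and 2187 in pistils (log2 difference -1.50, SE 0.14, adjusted p = 5.9e-07). BFN1, a nuclease of dying cells, differed by -1.14 and SWEET11, a phloem sucrose exporter, by -0.85, whereas LHW, a factor of vascular cell division, was higher in ovules (0.58).

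Of 10 measured stomatal genes, 5 lay below the detection level on all 4 arrays. FAMA, the factor of guard cell identity, was at 128 and 132 on the ovule arrays and 246 and 249 on the pistil arrays (log2 difference -0.66, SE 0.07, adjusted p = 1.4e-06), so that the pistil arrays alone passed the detection level. SDD1, a protease that limits stomatal density, was at 68.0 and 61.3 in ovules and 198 and 205 in pistils (log2 difference -1.001, SE 0.08, adjusted p = 4.3e-08). In all, 4 were higher in pistils and 2 in ovules, against 16.1% and 35.3% of all probe sets, and after scaling to the 75th percentile 7 and 2. The 2 in ovules were ERL1, given above, and FLP (0.80), a MYB factor of the last guard cell division.

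The list of stigma, style and transmitting tract genes had members on both sides. Of 12 measured genes, 5 were higher in pistils and 3 in ovules, against 16.1% and 35.3% of all probe sets (median -0.12). The other 4 were not called. After scaling to the 75th percentile 6 were higher in pistils and 3 in ovules. HAF (AT1G25330), a bHLH factor needed for the transmitting tract, was at 826 and 786 in the ovule replicates and 1776 and 1668 in the pistil replicates (log2 difference -1.03, SE 0.10, adjusted p = 1.0e-06). ARF8, an auxin response factor that holds back fruit growth before fertilization, was at 710.4 and 625 in ovules against 1096 and 1023 in pistils (difference -0.62). SPT, a bHLH factor of carpel margins, differed by -0.27 (adjusted p = 0.0096), NGA1 by -0.26 (adjusted p = 0.021) and YUC4 by -0.20 (adjusted p = 0.027), and these 3 small differences depended on single arrays. The adjusted p of SPT was 0.064 without the second ovule array and 0.071 without the first pistil array, and that of NGA1 0.22 and 0.087 without the same arrays. That of YUC4 was 0.15 without the first ovule array and 0.21 without the second pistil array.

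In the same list ARPN (AT2G02850), plantacyanin of the transmitting tract, was higher in ovules, with 2278 and 2468 on the ovule arrays and 1299.9 and 896 on the pistil arrays (log2 difference 1.08, SE 0.12, adjusted p = 3.8e-06). NGA2, a B3 domain factor of style growth, was at 528 and 455 in ovules and 191 and 229 in pistils (difference 1.001), and SHI, a zinc finger factor of the style, at 518 and 545 in the ovule replicates and 239 and 227 in the pistil replicates (difference 0.99). For all 3 the ovule arrays lay above the pistil arrays, against the organ for which the genes were listed. The 4 without a call were NGA4 (0.20, adjusted p = 0.24), BEE1 (-0.15, adjusted p = 0.25), NGA3 (-0.09, adjusted p = 0.33) and YUC2 (0.09, adjusted p = 0.52). BEE1 was called higher in pistils after scaling to the 75th percentile.

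Of the 5 measured genes of the carpel wall and valve margin, 2 were higher in pistils and 1 in ovules, against 16.1% and 35.3% of all probe sets. ADPG1, a polygalacturonase of dehiscence and abscission zones, was at 404 and 348 in ovules against 754 and 626 in pistils (log2 difference -0.76, SE 0.09, adjusted p = 5.9e-06), and YAB3 differed by -0.33 below the detection level. ALC, a bHLH factor of the valve margin, was higher in ovules, with 1195 and 1143 on the ovule arrays and 663 and 586 on the pistil arrays (log2 difference 0.84, SE 0.08, adjusted p = 5.1e-07).

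Families of cell wall genes had members on both sides. XTH19 (AT4G30290), a xyloglucan endotransglucosylase/hydrolase, was at 43.5 and 44.8 in ovules and 673 and 632 in pistils (log2 difference -2.64, SE 0.10, adjusted p = 3.5e-11), and its neighbour XTH18 at 36.1 and 51.3 in the ovule replicates and 342 and 335 in the pistil replicates (difference -1.83). Of 11 measured members of this family 4 were higher in pistils and 2 in ovules, against 16.1% and 35.3% of all probe sets (median -0.11). The expansin EXPA8 was at 58.3 and 53.8 in ovules against 362 and 383 in pistils (difference -1.80), with 3949 ± 477 in flowers. Of 19 expansins 8 were higher in pistils and 4 in ovules, against 16.1% and 35.3% of all probe sets (median -0.09). EXPA15, at 522 and 826 on the ovule arrays and 340.2 and 241 on the pistil arrays, led the 4 (difference 1.02). Of 15 cellulose synthase and cellulose synthase-like genes, 4 were higher in pistils and 3 in ovules, against 16.1% and 35.3% of all probe sets (median -0.01). After either rescaling 4 were higher in pistils and 1 in ovules. CSLA01, of the family that makes mannans, differed by -2.27.

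Of 51 measured UDP-glycosyltransferases, 19 were higher in pistils and 2 in ovules, against 16.1% and 35.3% of all probe sets. UGT71B1 was at 130.2 and 108 in ovules and 1189 and 1246 in pistils (log2 difference -2.76, SE 0.09, adjusted p = 6.9e-12), and UGT75B1 and UGT84A3 differed by -2.07 and -1.27. Of 50 cytochromes P450, 15 were higher in pistils and 6 in ovules, against the same 16.1% and 35.3%. CYP71B2 differed by -2.21 and CYP94B1, an enzyme of jasmonate turnover, by -1.41. Of 19 glutathione S-transferases, 6 were higher in pistils and 3 in ovules, again against 16.1% and 35.3%. GSTU18 was at 109.8 and 98.0 in the ovule replicates and 995 and 1156 in the pistil replicates (log2 difference -2.70, SE 0.10, adjusted p = 3.8e-11), whereas GSTU26 was at 1132 and 1144 in ovules against 437 and 413 in pistils (log2 difference 1.28, SE 0.07, adjusted p = 1.4e-09). Most members of the first 2 families, 32 of 51 and 32 of 50, lay below the detection level on all 4 arrays. At a mean from 71.9 to 216, 21.4% of probe sets were called higher in ovules and 16.9% in pistils. Below 71.9 the shares were 5.75% and 7.2%.

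Genes of jasmonate and wound defence were higher in pistils in 5 of 7 cases and in ovules in 1, against 16.1% and 35.3% of all probe sets. JAZ1 and JAZ5 are repressors that jasmonate itself induces. JAZ1 was at 567 and 687 on the ovule arrays and 1997 and 1515 on the pistil arrays (log2 difference -1.38, SE 0.26, adjusted p = 4.0e-04). JAZ5 was at 138 and 169 in ovules and 533 and 449 in pistils (log2 difference -1.32, SE 0.12, adjusted p = 2.9e-07). LOX3, a lipoxygenase of jasmonate synthesis, was below the detection level on all 4 arrays (difference -0.60) and was not called without the first ovule array (adjusted p = 0.057) or the first pistil array (adjusted p = 0.065), while AOC4, which acts later in the pathway, was higher in ovules at 1280.1 and 1319 in the ovule replicates and 1080.2 and 898 in the pistil replicates (difference 0.38). The call of AOC4 was lost after quantile normalization and after scaling to the 75th percentile.

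Small heat shock proteins, chaperones that keep damaged proteins soluble, were brighter in pistils than in ovules. ATHSP22.0 (AT4G10250) was at 69.2 and 60.4 in ovules against 955 and 1291 in pistils (log2 difference -3.11, SE 0.10, adjusted p = 1.1e-11), and in siliques, flowers, leaves and seedlings it ranged from 21.4 to 34.4, below the detection level, whereas pollen had 381 ± 22.6. HSP17.6II was at 83.0 and 61.0 on the ovule arrays and 490.4 and 629 on the pistil arrays (log2 difference -2.13, SE 0.17, adjusted p = 6.3e-08), and HSP17.6A at 124 and 65.6 in ovules and 465 and 473 in pistils (difference -1.72). Of 10 measured heat shock proteins and factors, 7 were higher in pistils, against 16.1% of all probe sets, and 0 in ovules. HSP90.1 was one of the 7, at 228 and 559.8 in the ovule replicates and 908 and 765 in the pistil replicates (difference -1.06, adjusted p = 0.033), and its difference was -0.52 (adjusted p = 0.36) without the first ovule array, -0.94 (adjusted p = 0.14) without the first pistil array and -1.17 (adjusted p = 0.069) without the second.

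COR47, ChiC and ECS1 were among the genes named for the size of their difference on the pistil side. COR47, a dehydrin of cold and drought, was at 119 and 98.1 in ovules against 1523 and 1285 in pistils (log2 difference -3.03, SE 0.10, adjusted p = 7.1e-12). ChiC (AT4G19810), a chitinase, was at 82.5 and 67.1 on the ovule arrays and 1019 and 986 on the pistil arrays (log2 difference -2.87, SE 0.10, adjusted p = 1.5e-11), and ECS1 at 74.4 and 77.7 in ovules and 1076 and 899 in pistils (log2 difference -2.83, SE 0.09, adjusted p = 7.3e-12). SAG21, a senescence-associated gene, differed by -1.19.

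Among transcription factor families, 8 of 41 measured MADS-box genes were higher in ovules and 3 in pistils, against 35.3% and 16.1% of all probe sets. Of the 41, 35 were below the detection level on all 4 arrays. Dim probe sets were called less often, 21.4% and 16.9% at a mean from 71.9 to 216 and 5.75% and 7.2% below 71.9. Besides STK, the MADS-box gene AGL18 was at 1209.7 and 1178 in the ovule replicates and 483 and 589 in the pistil replicates (difference 1.06). MYB61, known from mucilage of the seed coat, was the 1 called of 9 MYB genes, at 433 and 397 in ovules and 156 and 172 in pistils (difference 1.05), and it reached 1039.6 ± 0.78 in siliques. Of 13 WRKY genes 3 were higher in ovules and 4 in pistils, with WRKY6 at -1.40, of 9 NAC genes 1 and 1, and of 9 homeodomain-leucine zipper genes 3 and 2. For these families too, 35.3% and 16.1% are the shares of all probe sets. After scaling to the 75th percentile the 3 pairs of counts were 1 and 4, 1 and 1, and 2 and 3, and those of the MADS-box genes 4 and 3. Below the detection level on all 4 arrays were 10 of the WRKY, 7 of the NAC, 7 of the MYB and 4 of the homeodomain-leucine zipper genes. HB-1 was at 117 and 109 in ovules against 606 and 516 in pistils (difference -1.77), and HAT2 at 753 and 691 on the ovule arrays and 249 and 311 on the pistil arrays (difference 1.18).

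**Figure D3:**
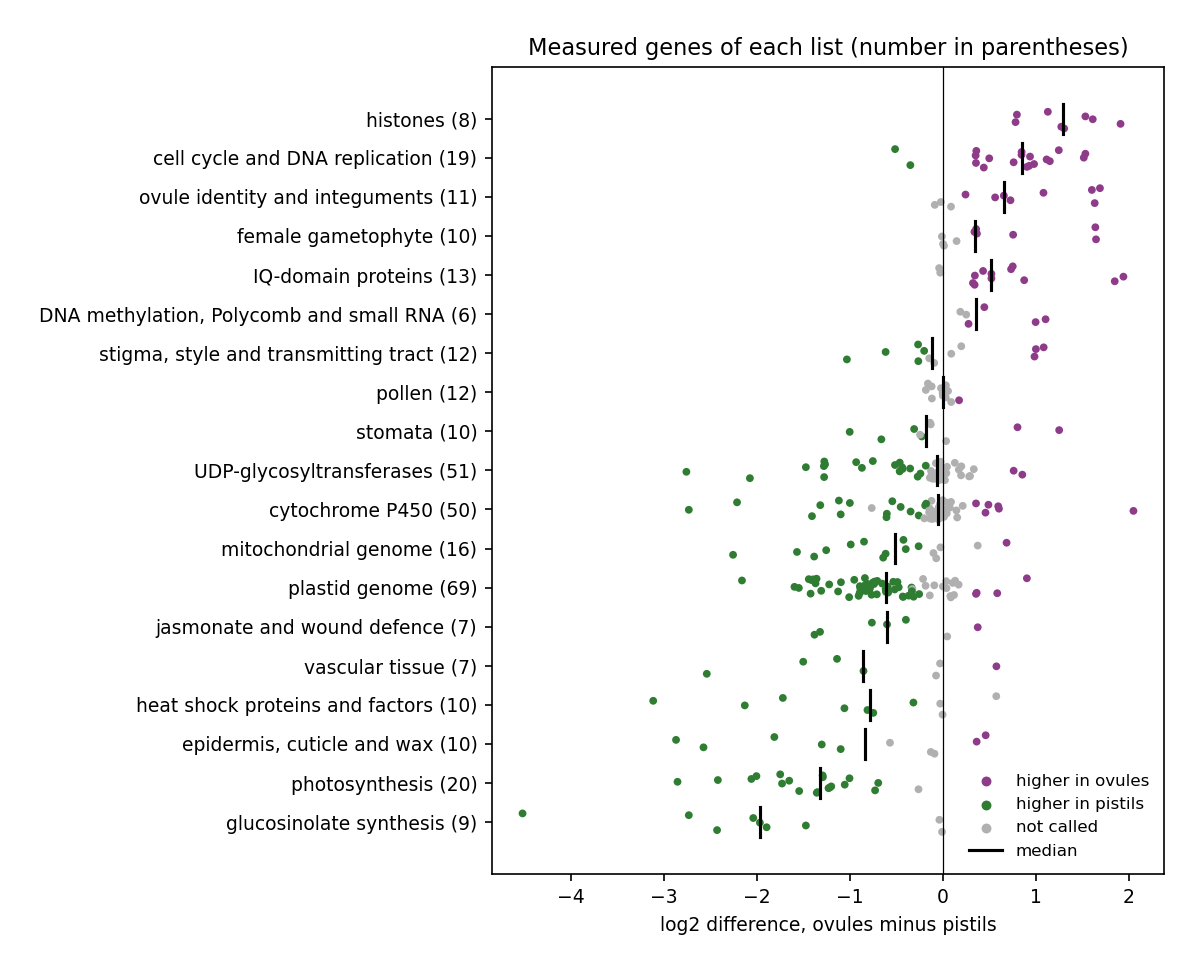
Log2 difference between ovules and pistils for each measured gene of 19 lists, with the median of the list as a black bar. Other lists, among them that of flavonoids and proanthocyanidins (median 1.60), are not drawn. Points are purple where the gene was higher in ovules, green where it was higher in pistils and grey where it was not called, and the medians run from -1.97 for glucosinolate synthesis to 1.29 for histones, with the same sign under both rescalings for these lists except pollen.

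Markers of other organs were low in both samples. The 12 measured pollen genes were all below the detection level on all 4 arrays, and their summed intensity was 762 to 779 in ovules and 742 to 864 in pistils. ANX1, a receptor kinase of the pollen tube, was at 50.1 and 46.7 in ovules and 46.9 and 50.2 in pistils, against 4519.9 ± 135 in pollen. ACA9, a calcium pump of the pollen tube, was at 57.8 and 60.4 in the ovule replicates and 56.9 and 65.0 in the pistil replicates, against 5187 ± 524 in pollen. Of these 12, 1 was called, MGH3, with a difference of 0.17 that was not called without either ovule array or without the first pistil array (adjusted p = 0.083 to 0.17). After scaling to the 75th percentile 0 of the 12 pollen genes were higher in ovules and 4 in pistils. The 6 root genes and the 2 genes of sepals and nectaries were also below the detection level on all arrays and without a call. Of 6 genes of stamens and petals LAP6 alone was above that level, with 1 call in each direction.

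The other sample types showed where the transcripts of each side were present besides the pistil. Of the 751 probe sets at least 2-fold higher in ovules, 51.9% had their highest mean among the 6 other sample types in siliques and 4.26% in leaves. Of the 1089 at least 2-fold higher in pistils, 10.9% had it in siliques and 42.1% in leaves. Over the 11974 probe sets with a mean above the detection level on the 4 arrays, these shares were 34.3% and 17.1%. Flowers were highest for 17.8% and 17.2% of the ovule and pistil sides, against 6.36% of all. These are descriptions without a test, since the sample types came from different studies.

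Of the 751 probe sets on the ovule side, 118 (15.7%) had a higher mean in siliques than in ovules. A higher mean than in ovules was found for 25 (3.33%) in flowers and 20 (2.66%) in leaves. Over the 11974 probe sets with a mean above the detection level, the shares were 43.2%, 27.3% and 33.2%. The 751 were chosen for a higher value in ovules, so lower shares partly follow from the choice. Above the detection level were 569 (75.8%) in siliques and 266 (35.4%) in leaves, against 90.6% and 80.7% of the 11974. scpl20 (AT4G12910), a serine carboxypeptidase-like protein, was among the 118 that were brighter in siliques. It was at 2643 and 2804 in ovules against 675 and 715 in pistils (log2 difference 1.87, SE 0.09, adjusted p = 2.2e-10 from limma) and 8991 ± 229 in siliques. Of the 1089 probe sets on the pistil side, 630 (57.9%) had a higher mean in leaves than in pistils, against 41.6% of the 11974. In leaves 850 (78.1%) were above the detection level, near the 80.7% of the 11974. CER3 and PA2 differed in this regard, with 1821 ± 53.7 and 124 ± 64.7 in leaves. In pollen 10.4% of the pistil side and 11.2% of the ovule side were above the detection level, against 24.4% of the 11974.

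**Figure D4:**
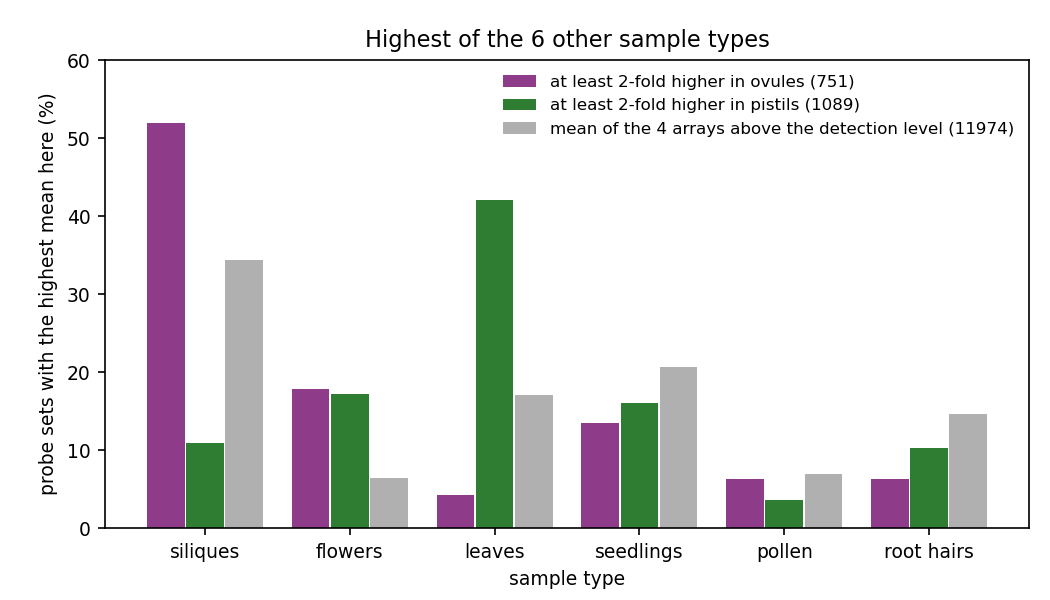
Share of probe sets (bars, in %) whose highest mean among the 6 other sample types lies in the type on the horizontal axis, for the 751 probe sets at least 2-fold higher in ovules, the 1089 at least 2-fold higher in pistils and the 11974 above the detection level. Siliques lead on the ovule side with 51.9% and leaves on the pistil side with 42.1%.

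**Figure D5:**
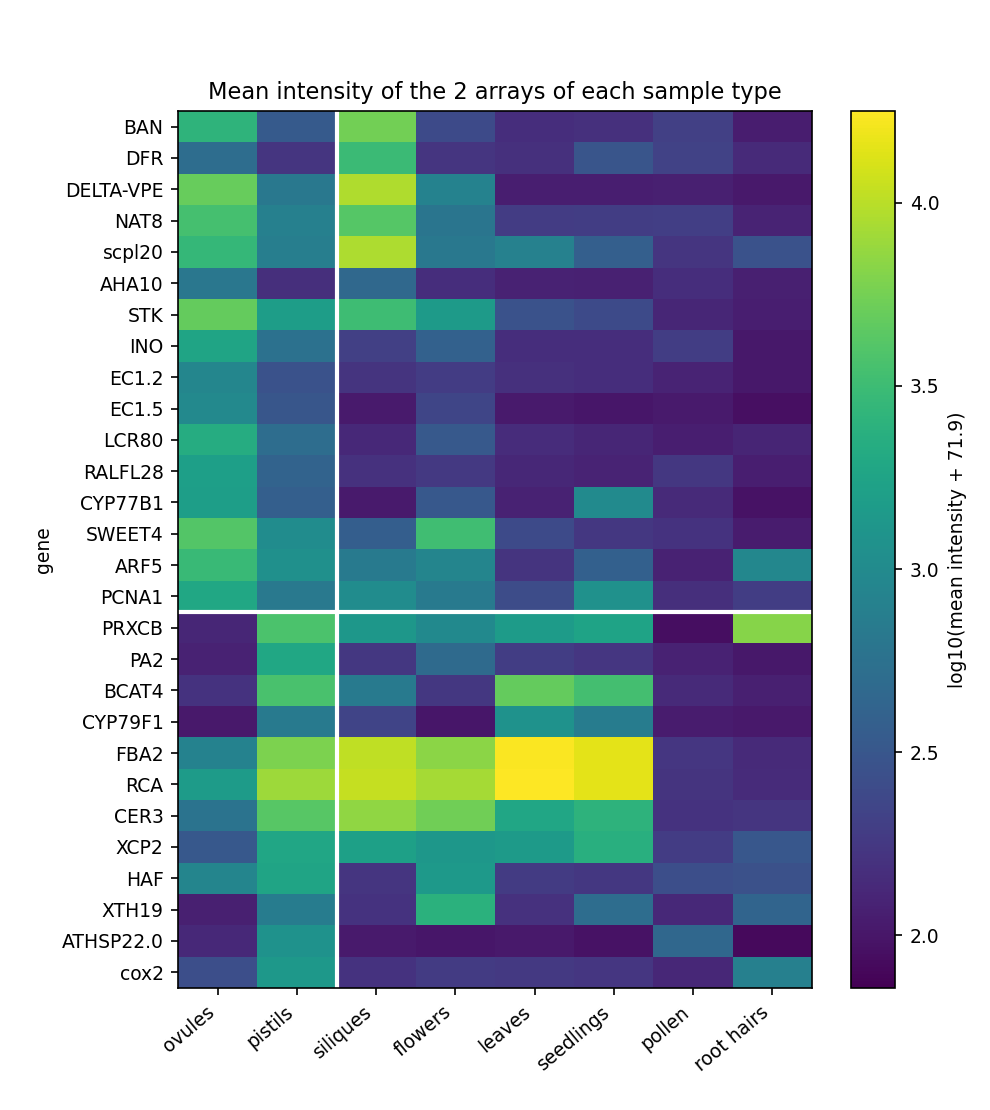
Mean intensity of 28 named genes in the 8 sample types, as log10(mean + 71.9), with 16 genes of the ovule side above the white line and 12 of the pistil side below it, 2 arrays a type. BAN, DFR, DELTA-VPE, NAT8 and scpl20 are brighter in siliques than in ovules, whereas EC1.2, EC1.5, LCR80 and RALFL28 are below 216 there.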

How the data were processed

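The authors deposited a table of linear intensities for 16 ATH1 arrays, made by the authors with the model-based method of dChip after detection calls with GCOS 1.4 and MAS5, as named in the submitters' processing notes. Whether the ovule and pistil RNA was amplified like that of root hairs is not given in the sources used here. No probe-level step was repeated.

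Here log2(intensity + 71.9) was fitted in limma 3.58.1 under R 4.3.3. Each of the 8 sample types of the 16 arrays had its own mean, the variance prior followed a trend with brightness, and ovules were compared with pistils by a two-sided test with Benjamini-Hochberg adjustment over 22746 probe sets. The pseudocount was set to the 20th percentile of intensity (the median of the 16 arrays), and the detection level, 216, to 3 times the pseudocount. The fit was tested on simulated data. Tables and figures used Python 3.11.15, pandas 2.3.3, numpy 2.4.6 and matplotlib 3.10.9. The number of arrays, 2 per sample type, limits the precision.

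Of 22810 probe sets, 15575 had 1 gene, 503 several and 6732 none here, from the platform annotation and tables of the study, with symbols and neighbouring loci from RefSeq (TAIR10.1). Named genes were the 15 probe sets per direction with 1 gene and the largest difference (adjusted p under 0.05, no overlap of the arrays, brighter mean above 216), the same among genes with a symbol, up to 6 called members of each list with the largest difference, and all measured genes of the ovule, female gametophyte and stigma lists. A gene with several probe sets counts by the brightest. A listed gene is called measured where a probe set was annotated with it alone. Listed genes without such a probe set were left out, although the array may carry them. The measured genes were 20 of 64 for photosynthesis, 19 of 72 for the cell cycle, 7 of 40 for jasmonate and 5 of 25 for the carpel wall. Members and lists were chosen with earlier results of these data known, and the 2-fold limit, the second set of 15 and the lists of histones, heat shock, peptide, IQ-domain, carboxypeptidase-like, plastid and mitochondrial genes were added after the values had been seen. The arabinogalactan and fasciclin-like list had 2 of 5 genes higher in ovules and 1 in pistils. The serine carboxypeptidase-like list had 8 and 6 of 23, with 35.3% and 16.1% of all probe sets as the shares for both lists. After scaling to the 75th percentile these counts were 1 and 2, and 3 and 8, against 4514 and 4928 of 22746 probe sets. Replicates that share a number did not deviate together (correlation of -0.365 between ovules and pistils), so the numbers were not taken as pairs.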

Additional observations from a re-analysis of the deposited data

How the results depend on the processing

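The 2-fold counts of 751 and 1089 were 563 and 1253 after quantile normalization, 436 and 1322 after scaling to the 75th percentile, 1200 and 1569 with a pseudocount of 1, and 363 and 586 with one 4 times the size. The counts without a fold limit, 8038 and 3653, were 4514 and 4928 after scaling to the 75th percentile, 5650 and 3842 after quantile normalization, 3817 and 2204 when a fold over 1.2 was required, and 6613 and 2308 of 11974 without dim probe sets. With the replicate number as a block over the 16 arrays they were 7900 and 3611, with a block over the 4 arrays 5681 and 3206, and with the numbers crossed, an alternative added after seeing the data, 8086 and 3907. Leaving out 1 array at a time gave 6782 to 7362 and 3168 to 3425 without a fold limit, and 784 to 815 and 1035 to 1140 at 2-fold. A group left with 1 array was assumed to vary like the other groups.

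Of 4046 recomputed values of 256 named genes, 3856 kept their direction and their side of the threshold, 171 lost the call, 2 gained one, and 17 values without a call changed sign. No called gene changed sign. The replicate block over the 16 arrays changed no call of these genes, and that over the 4 arrays ended 21. Small differences of bright genes lie within the shift that the scaling moves, and dim genes have differences that the pseudocount shrinks.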

Other observations

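Genes that neighbour each other on a chromosome, by their order in RefSeq, were looked at after the values had been seen. Of 8060 measured pairs of neighbours, 56 had both genes at least 2-fold different, 34 in the same direction and 22 in opposite directions. Of all probe sets, 3.3% and 4.79% were at least 2-fold higher in ovules and in pistils, and nothing is read from the number of pairs. AT4G17470 had mean intensities of 245 in ovules and 2977 in pistils, and AT4G17480 beside it 1885 and 356. CER1 (AT1G02205) had 639 and 4153, and AT1G02190 beside it 3029 and 858. TRI (AT2G29330), annotated as a tropinone reductase, had 653 and 143, and AT2G29320 beside it 209 and 1282. AT1G67860 and AT1G67865 were both on the pistil side, with 76.1 and 55.1 in ovules and 2353 and 2290.4 in pistils. No test was made of these pairs, and related neighbours can share probes.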
